A study of Homo sapiens with 6 samples.

Results

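The miR-200 family was followed in small RNA libraries of A549 cells, a human lung adenocarcinoma line, by taking the 9 rows of the count tables that carry the names of its mature miRNAs. The tables list 2588 miRNAs in all. The members are both arms of the miR-200a, miR-200b, miR-200c and miR-141 hairpins and miR-429, for which a single arm is listed. Of the 9 members, 6 passed the filter on low counts that 620 miRNAs passed. miR-200c-5p, miR-141-5p and miR-141-3p did not pass it, and only their counts are given.

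All libraries came from cells with an inducible knockdown of METTL1, a methyltransferase that places N7-methylguanosine (m7G) in RNA, collected on day 5 of doxycycline at 200 ng/ml. Per the study's methods the knockdown was driven by an integrated short hairpin RNA vector under puromycin selection. The input group had 3 libraries made from total RNA, and 3 more were made from RNA recovered with an anti-m7G antibody (m7G-RIP). Since every library carried the knockdown, the comparison describes what the antibody recovered from knockdown cells, and an effect of METTL1 cannot be read from it.

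The total RNA libraries held between 9155690 and 10753443 counts and the m7G-RIP libraries between 2649238 and 3106556. The culture text of the m7G-RIP samples names the medium of Caco-2, a colorectal line, although their titles and cell line labels give A549. The 8 listed miRNAs of the miR-371 to miR-373 cluster, typical of pluripotent cells and chosen as a check for Caco-2, had 0 counts in every m7G-RIP library and 4 counts in all of total RNA. No library labelled Caco-2 was used here, so their level in that line is not given beside them. miR-21-5p, abundant in A549 cells, held 128009 to 152492 counts in m7G-RIP, although its mean level was 40653 CPM there against 574830 CPM in total RNA. The intestinal miRNAs miR-192-5p, miR-194-5p and miR-215-5p were high in total RNA too, at a summed 21592 to 22196 CPM against 2907 to 3181 CPM in m7G-RIP, and so do not separate the lines. CPM are counts scaled to a common library size. That size was first multiplied by a TMM factor, 0.820 to 0.831 in total RNA and 1.15 to 1.28 in m7G-RIP. CPM are therefore not shares of all counts. miR-21-5p, for example, held 5230937 of the 10753443 counts of total RNA replicate 1. Of 7 blood cell miRNAs, 1 had counts in total RNA, 8 in all, and 1 had counts in m7G-RIP, 5 in all.

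The miR-200 family is known as a keeper of the epithelial state. Its members repress ZEB1 and ZEB2, transcription factors that shut off E-cadherin and drive epithelial cells toward a mesenchymal, migratory form, and these factors in turn repress the miR-200 genes. A miRNA hairpin is cut to a short duplex, one arm of which is usually loaded into Argonaute to silence mRNAs while the other is degraded, and target choice rests mainly on the seed, bases 2 to 8 from the 5′ end. The family has 2 clusters and, in its 3p arms, 2 seeds that differ at 1 base. miR-141-3p had 9 counts in total RNA and 0 in m7G-RIP. Location and seed could therefore be compared only between single members, and neither can be read separately from other differences between them.

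In GRCh38 (GENCODE release 44) the first cluster lies on the plus strand of chromosome 1, with MIR200B at chr1:1167104-1167198, MIR200A at chr1:1167863-1167952 and MIR429 at chr1:1169005-1169087. These 3 hairpins overlap no other gene of that annotation. The second lies on the plus strand of chromosome 12, with MIR200C at chr12:6963699-6963766 and MIR141 at chr12:6964097-6964191, both in an intron of the lncRNA MIR200CHG. The first cluster spans 1984 bases and the second 493. RefSeq sequences (GRCh38.p14) were matched for 8 of the 9 members, all but miR-141-5p. They are shown first because the comparisons by seed, arm and cluster rest on them, with the seed in capitals. The 3p arms come first, in their 2 seed groups, followed by the 5p arms.
hsa-miR-200b-3p: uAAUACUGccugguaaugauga
hsa-miR-200c-3p: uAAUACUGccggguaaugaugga
hsa-miR-429: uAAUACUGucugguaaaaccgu
hsa-miR-200a-3p: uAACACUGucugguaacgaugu
hsa-miR-141-3p: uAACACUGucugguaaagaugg
hsa-miR-200b-5p: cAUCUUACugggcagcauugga
hsa-miR-200a-5p: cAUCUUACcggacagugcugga
hsa-miR-200c-5p: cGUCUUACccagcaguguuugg

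miR-200b-3p, miR-200c-3p and miR-429 share the seed AAUACUG, and miR-200a-3p and miR-141-3p share AACACUG. Among the 5p arms, miR-200b-5p and miR-200a-5p share the seed AUCUUAC, although they come from different hairpins. Outside the seed some 3p arms are close copies, while miR-200b-3p and miR-429 differ at 6 positions. Counted from the 5′ end, miR-200b-3p and miR-200c-3p differ by U11G and A22G over 22 positions, and miR-200c-3p is 1 base longer. miR-200a-3p and miR-141-3p differ by C17A and U22G. Per the study's methods alignment allowed 1 mismatch, so a read of 1 member that lost its 3′ end and carried a sequencing error could be counted for its near copy. The share of such reads was not tested.

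The m7G-RIP libraries recovered the family unevenly. Against the background of all miRNAs, miR-200a-3p, miR-200b-3p and miR-200a-5p were lower in m7G-RIP than in total RNA, miR-200b-5p and miR-200c-3p were not, and miR-429 had only a few counts there. With edgeR's quasi-likelihood test over all 620 miRNAs, 3 of the 6 tested members were depleted at an adjusted p under 0.05 and 0 were enriched. Of all miRNAs tested, 29.2% were depleted and 23.5% enriched. At an unadjusted p under 0.05 no member was enriched either, and DESeq2 and limma-voom also enriched 0. The median log2 ratio of m7G-RIP over total RNA was -1.33 over the 6 members and -0.074 over all tested. By TMM-scaled values, 4 of the 6 had every m7G-RIP library below every total RNA library, as did 36.5% of all tested, and 0 had every one above, as did 29.5%.

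Values are given as CPM scaled by TMM, which assumes that most miRNAs keep their proportions. That assumption was not tested, and 29.2% of all tested miRNAs were called depleted and 23.5% enriched. Scaling by library size alone raised the median over all tested miRNAs by 0.55 on the log2 scale. With it, miR-200b-5p and miR-200c-3p became 2 enriched members, and miR-200a-5p was no longer depleted. Ratios are therefore also stated against the median of all tested miRNAs, and the comparisons between members rest on counts of the same library, which no scaling changes. Nothing in the labels says whether replicates came from separate cultures, so the p-values measure the spread between these libraries, which may be technical.

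**Figure D1:**
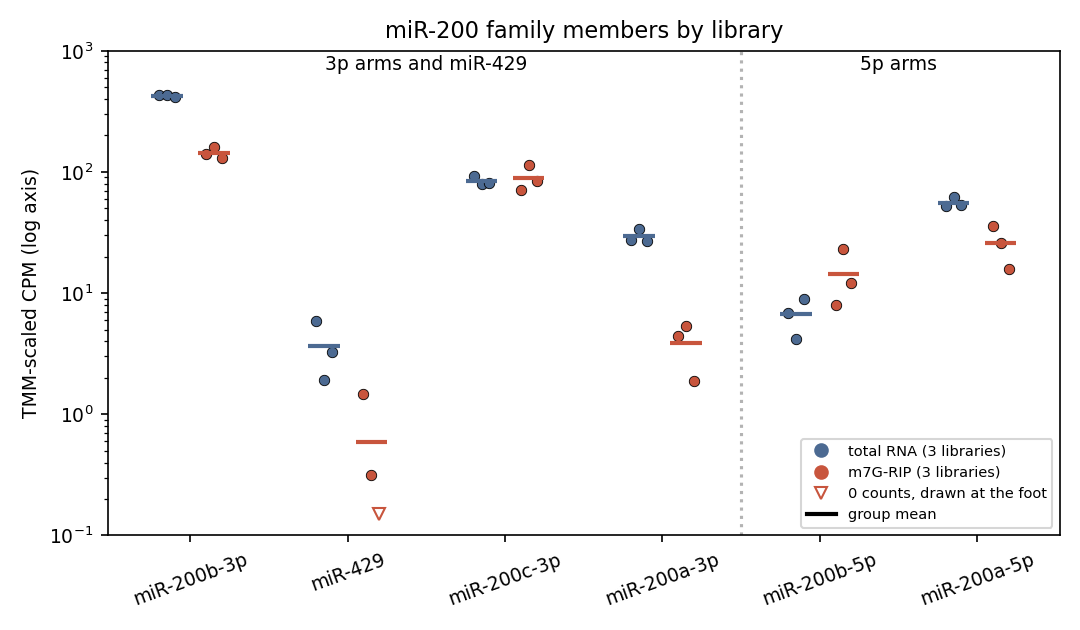
TMM-scaled CPM (log axis) of the 6 tested members in each of the 3 total RNA and 3 m7G-RIP libraries. Points are libraries, bars are group means, and the open triangle is a library with 0 counts. The m7G-RIP points of miR-200b-3p and miR-200a-3p lie below all total RNA points, while those of miR-200c-3p overlap them.

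hsa-miR-200b-3p, the guide arm that carries the AAUACUG seed from chromosome 1, was the most abundant member. It had 433, 428 and 416 CPM in total RNA replicates 1, 2 and 3 and 141.4, 161 and 131 CPM in m7G-RIP. The groups did not overlap, and each was tight. Its log2 ratio was -1.56 (SE 0.14, edgeR adjusted p 1.69e-05), a level 2.94-fold lower in m7G-RIP, and it ran from -1.83 to -1.005 over all alternatives.

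hsa-miR-200c-3p carries the same seed from chromosome 12. It had 93.3, 80.1 and 81.4 CPM in total RNA and 71.6, 113 and 84.1 CPM in m7G-RIP. The lowest and the highest value were both m7G-RIP libraries, so the groups overlapped. Its log2 ratio was 0.077 (SE 0.22, 95% interval -0.42 to 0.57, edgeR adjusted p 0.782). That value turned negative in 5 of the alternatives, down to -0.29 without m7G-RIP replicate 2, and rose to 0.62 with library size alone, where it was past the threshold and the m7G-RIP values were all higher than those of total RNA.

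hsa-miR-429, the remaining member with that seed, was scarce. It had 52, 16 and 25 counts in total RNA and 5, 1 and 0 in m7G-RIP, where an unchanged level would give 38.0 counts over the 3 libraries and 6 were found. Its TMM-scaled values did not overlap between groups, from 1.90 to 5.87 CPM against 0 to 1.47 CPM, but with library size alone they did. The log2 ratio of -2.60 had an SE of 1.17 and was not past the threshold (edgeR adjusted p 0.0891). Without m7G-RIP replicate 1 it was -4.67 and past it.

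hsa-miR-200a-3p, which carries the AACACUG seed, had the lowest log2 ratio of the family with all 6 libraries and no replicate block. miR-429 was lower without m7G-RIP replicate 1, at -4.67 against -3.26, and with the block. miR-200a-3p had 27.3, 33.6 and 27.1 CPM in total RNA and 4.42, 5.34 and 1.87 CPM in m7G-RIP. All m7G-RIP libraries lay far below total RNA. They rested on 15, 17 and 7 counts. The log2 ratio was -2.92 (SE 0.46, edgeR adjusted p 0.000650), a level 7.59-fold lower, and 11.5% of all tested miRNAs had a lower ratio.

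The 5p arms of the chromosome 1 hairpins, usually the less used strands of the duplex, had log2 ratios of opposite sign. miR-200a-5p had 52.1, 62.6 and 53.0 CPM in total RNA and 35.9, 26.1 and 15.8 CPM in m7G-RIP, and was depleted by -1.11 on the log2 scale (SE 0.32, edgeR adjusted p 0.0172). With TMM scaling its groups did not overlap, and with library size alone they did and the call was lost (log2 ratio -0.54). It was also lost without total RNA replicate 2, at -1.02. miR-200b-5p had 6.88, 4.16 and 8.94 CPM in total RNA and 7.95, 23.2 and 12.05 CPM in m7G-RIP. Its groups overlapped through m7G-RIP replicate 1, and its log2 ratio of 1.11 (SE 0.57) was not past the threshold (edgeR adjusted p 0.130). Without m7G-RIP replicate 2, the highest library, it was 0.42.

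The members were then ordered against the median of all tested miRNAs. miR-200a-3p lay 2.85 below that median on the log2 scale, miR-429 lay 2.53 below, miR-200b-3p 1.48 below and miR-200a-5p 1.04 below. miR-200c-3p lay 0.15 above it and miR-200b-5p 1.18 above. Across the fits that gave a value, this difference kept its sign for each of these members except miR-200c-3p, for which it ran from -0.20 to 0.59. The 95% intervals of the log2 ratio overlapped between all neighbours in this order.

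**Figure D2:**
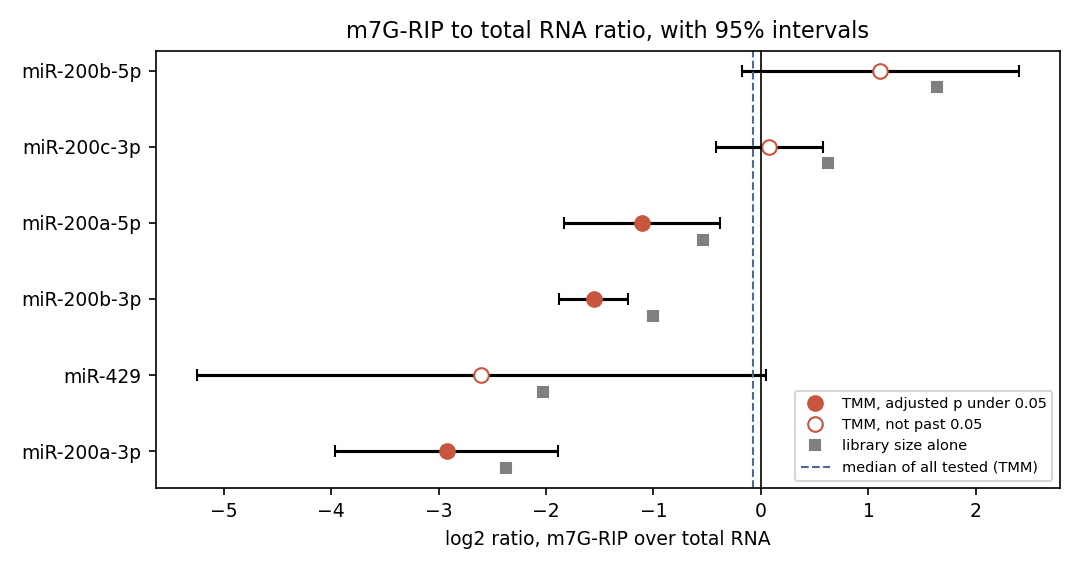
log2 ratio of m7G-RIP over total RNA for the 6 tested members, with 95% intervals from edgeR (circles, filled where the adjusted p was under 0.05). Squares give the ratio with library size alone, shifted to higher values throughout, and the dashed line is the median of all tested miRNAs at -0.074.

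The other 3 members were near absent. miR-141-3p had 6, 0 and 3 counts in total RNA, miR-200c-5p had 0, 4 and 3, and miR-141-5p had 1, 0 and 2. In m7G-RIP each had 0 counts in every library. An unchanged level would have given 3.68, 2.99 and 1.29 m7G-RIP counts in all, so a difference was not detectable at this depth. A count of 0 still allows up to 3 counts, or on average 0.876 CPM in an m7G-RIP library. These limits cover counting error only, since reads were counted without molecular identifiers.

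The clusters differed in how evenly their hairpins were represented. In total RNA the chromosome 12 cluster was nearly all miR-200c-3p, with 2120 counts over the 3 libraries against 9 of miR-141-3p, although both hairpins lie within the same lncRNA gene. On chromosome 1, miR-200b-3p had 10598 counts, miR-200a-5p 1392, miR-200a-3p 731, miR-200b-5p 164 and miR-429 93. The members are 22 or 23 bases long and a read spans the whole miRNA, so no length correction was made.

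The family took 0.0510%, 0.0501% and 0.0491% of all counts in total RNA and 0.0337%, 0.0380% and 0.0294% in m7G-RIP. Every m7G-RIP library lay below every total RNA library, with a difference of -0.0164 percentage points (exact two-sided permutation p 0.1). With 3 libraries against 3, 0.1 is the smallest p this test can give, here and for the shares and ratios that follow. The p adjusted over the 4 shares of counts compared was 0.1. The fall was not shared by all members. With library size alone, miR-200b-3p held 346 to 357 CPM in total RNA and 157 to 186 CPM in m7G-RIP. miR-200a-3p was also lower in every m7G-RIP library. miR-200c-3p, at 65.7 to 76.9 CPM in total RNA and 91.7 to 131 CPM in m7G-RIP, was higher in every one, as was miR-200b-5p. The groups overlapped for the remaining members.

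By cluster, chromosome 1 supplied 84.8%, 86.8% and 86.0% of the family counts in total RNA and 72.8%, 65.6% and 65.6% in m7G-RIP. The mean was 85.9% ± 1.0 in total RNA and 68.0% ± 4.11 in m7G-RIP (SD, n = 3, exact permutation p 0.1). The remainder was almost all miR-200c-3p, whose share of family counts was 13.99% ± 0.993 in total RNA and 31.99% ± 4.11 in m7G-RIP (SD, n = 3). With 3p arms alone the chromosome 1 share was 84.3% in total RNA and 62.7% in m7G-RIP.

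By seed, the AACACUG group, in effect miR-200a-3p, supplied 5.00%, 6.19% and 5.20% of the 3p-arm counts in total RNA and 2.02%, 1.90% and 0.864% in m7G-RIP. The groups did not overlap (exact permutation p 0.1). The lowest of these shares rested on 7 of 810 counts, with a 95% Wilson interval of 0.419% to 1.77%. The seed groups were not uniform inside: AAUACUG held both miR-200b-3p and miR-200c-3p, which are compared below, and AUCUUAC held miR-200a-5p and miR-200b-5p, with log2 ratios of opposite sign whose difference was not tested.

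**Figure D3:**
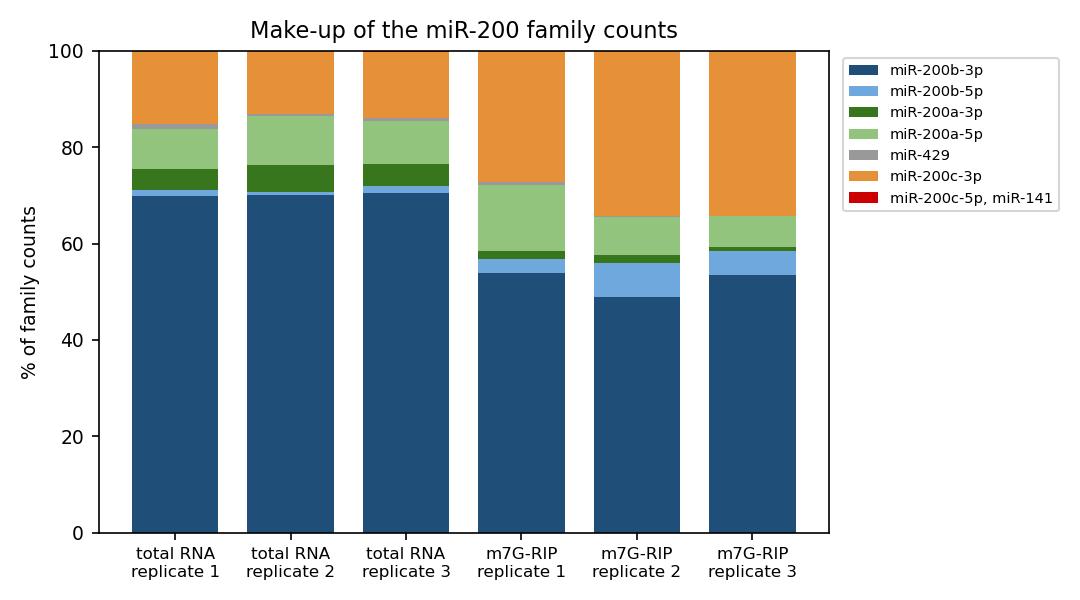
Share of the family counts (%) taken by each member in each library, as stacked bars. The part of miR-200c-3p, at the top, is larger in the 3 m7G-RIP libraries than in the 3 total RNA libraries, and that of miR-200b-3p, at the foot, is smaller.

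Pairs of members were compared within each library to hold cluster or seed constant, over 5 pairs. The members of each pair also differ at bases outside the seed. miR-200b-3p and miR-200c-3p have the same seed and lie in different clusters. miR-200b-3p outnumbered miR-200c-3p by 4.64, 5.34 and 5.11 to 1 in total RNA and by 1.98, 1.42 and 1.56 to 1 in m7G-RIP. The log2 of this ratio differed by -1.62 in the mean, with SDs of 0.10 and 0.24 (n = 3 each), and no library of a group came near the other group (exact permutation p 0.1, adjusted over 5 pairs 0.167).

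miR-200b-3p and miR-200a-3p lie in the same cluster and differ in seed. miR-200b-3p outnumbered miR-200a-3p by 15.9, 12.7 and 15.4 to 1 in total RNA and by 32, 30.2 and 69.9 to 1 in m7G-RIP. The log2 difference was 1.42, and the groups did not overlap (exact permutation p 0.1, adjusted 0.167). For miR-200b-3p and miR-429, of the same cluster and seed, the difference of 1.30 was within the spread of the libraries, with SDs of 0.79 and 1.75 (n = 3 each, exact permutation p 0.3, adjusted 0.375). It rested on 5, 1 and 0 counts of miR-429 in m7G-RIP and on the 0.5 added to each count. It was 0.27 with 2 added, 2.21 without m7G-RIP replicate 1 and 0.46 without m7G-RIP replicate 3. No ratio is given for the pairs with miR-141-3p, which had 0 counts in m7G-RIP. Those pairs were still among the 5 over which p was adjusted, so the adjusted values rest in part on them.

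The arms of a hairpin come from the same precursor, so their ratio sets aside how much of the hairpin was made. In the miR-200a hairpin the 5p arm was the larger in every library. It made up 65.6%, 65.1% and 66.2% of the hairpin's counts in total RNA and 89.1%, 83.0% and 89.4% in m7G-RIP. In the miR-200b hairpin the 5p arm was a small minority, at 1.57%, 0.963% and 2.10% in total RNA and 5.33%, 12.6% and 8.43% in m7G-RIP. In both hairpins every m7G-RIP library had the larger 5p share.

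The arm ratio was tested with limma over all 139 hairpins that had both arms past the filter. The log2 ratio of 5p over 3p was higher in m7G-RIP by 1.81 for miR-200a (SE 0.41, limma adjusted p 0.00692) and by 2.60 for miR-200b (SE 0.53, limma adjusted p 0.00449). These are shifts of 3.51-fold and 6.08-fold in the balance of the arms. Such a shift toward the 5p arm was called in 26.6% of the 139 hairpins, and a shift toward the 3p arm in 17.3%. miR-200b ranked 22 and miR-200a ranked 38 from the top. The call for miR-200a was lost without total RNA replicate 1 (limma adjusted p 0.0582), with a difference of 1.81 still. The direction was the same in both hairpins although miR-200a-5p was depleted and miR-200b-5p was not.

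**Figure D4:**
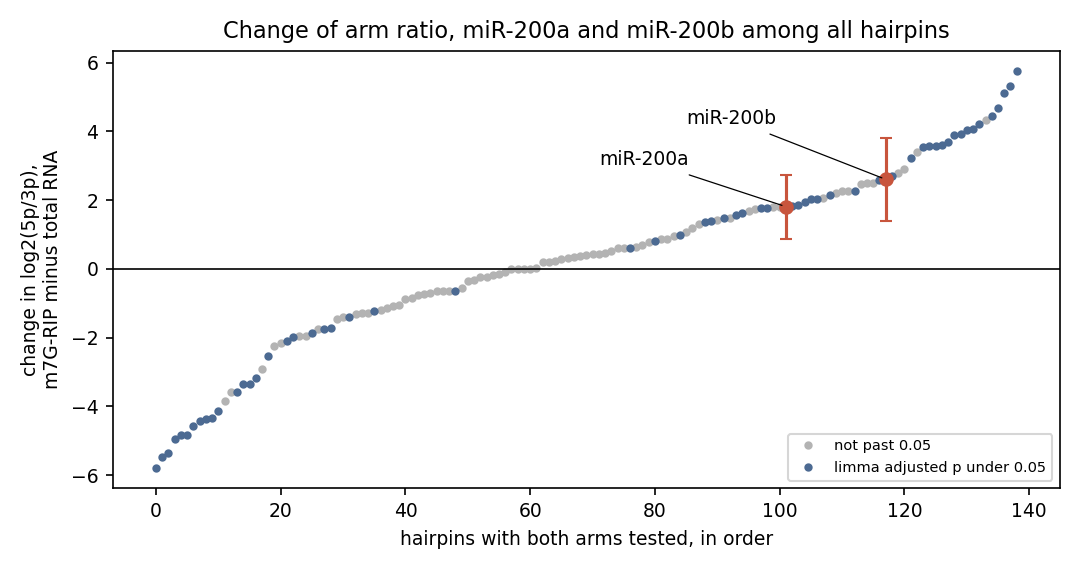
Change in log2(5p/3p) between m7G-RIP and total RNA for the 139 hairpins with both arms tested, in rising order, with blue points past a limma adjusted p of 0.05. miR-200a (1.81) and miR-200b (2.60) are drawn in red with 95% intervals, both above 0.

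Over the whole family, 5p arms supplied 10.4% ± 0.756 of the counts in total RNA and 14.3% ± 2.71 in m7G-RIP (SD, n = 3, exact permutation p 0.1). The groups did not overlap, but the lowest m7G-RIP library, at 11.4%, was close to the highest total RNA library, at 11.02%.

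Runs of G were examined in the mature sequences after the ratios had been seen, since m7G forms on G. They are printed again with runs of G in capitals, the 2 members with a run of 3 first.
hsa-miR-200b-5p: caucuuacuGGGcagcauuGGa
hsa-miR-200c-3p: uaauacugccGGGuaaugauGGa
hsa-miR-200a-5p: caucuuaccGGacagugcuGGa
hsa-miR-200b-3p: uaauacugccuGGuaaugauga
hsa-miR-429: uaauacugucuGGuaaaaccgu
hsa-miR-200a-3p: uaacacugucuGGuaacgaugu

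miR-200b-5p and miR-200c-3p, the tested members with GGG, were the members with a log2 ratio above the median of all tested miRNAs, although for miR-200c-3p this did not hold under every alternative. The other 4, with GG and no GGG, lay below it. The GGG of miR-200c-3p includes the base changed by U11G, the only difference from miR-200b-3p before the 3′ end. In miR-200b-5p against miR-200a-5p the changes were U9C, G12A, C16U, A17G and U18C, and G12A lies in the run. Both miR-200a-5p and miR-200b-5p have 6 G in all. miR-200c-3p has 7, miR-200b-3p and miR-200a-3p have 5 each and miR-429 has 4. The members with 6 or 7 G had higher log2 ratios than those with 4 or 5. GGG was not tested apart from the number of G.

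A sequence was matched for 557 of the 620 tested miRNAs, or 89.8%. GGG was present in 35.7% of them, searched in the RNA strand as printed. Outside the family, the 197 miRNAs with GGG had a median log2 ratio of 0.87, with 38.6% enriched and 15.7% depleted. The 214 with GG and no GGG had a median of -0.44, with 19.6% enriched and 32.7% depleted. The 140 without GG had a median of -0.58, with 12.1% enriched and 37.1% depleted. Over all 551 outside the family with a sequence, 24.5% were enriched and 27.8% depleted. The filter worked by group, so a miRNA could pass it through its counts in m7G-RIP alone. The quartiles of the GGG group were -0.58 and 1.91, so single miRNAs spread widely on both sides. These are descriptions of miRNAs that share libraries, the same ones in which runs of G were picked for a look. The position of m7G was not measured.

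**Figure D5:**
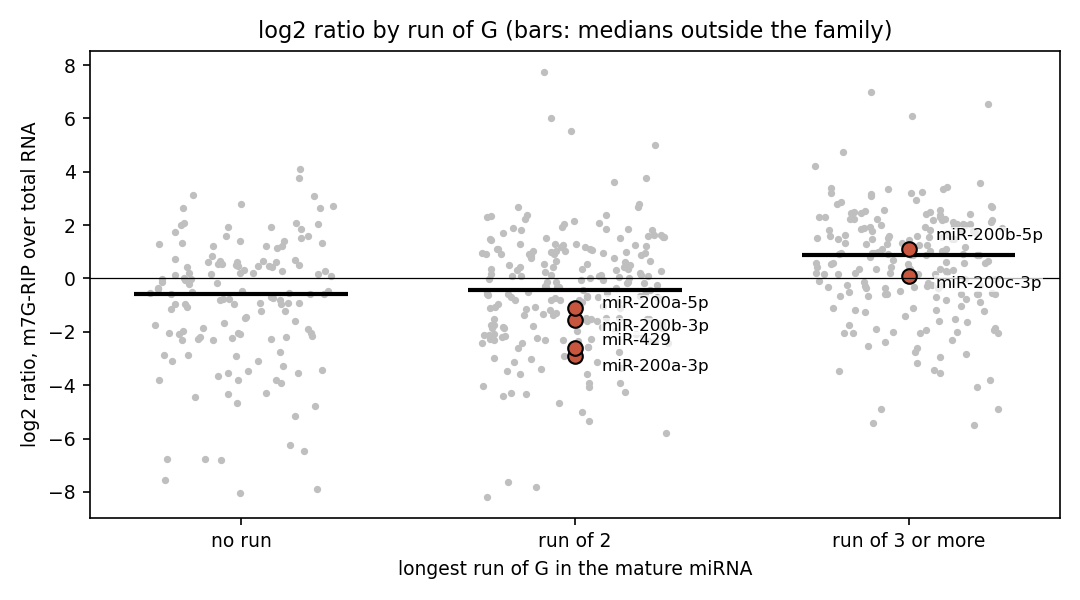
log2 ratio of m7G-RIP over total RNA for the 557 tested miRNAs with a sequence, by the longest run of G in the mature miRNA. Grey points are other miRNAs, spread sideways at random, black bars are their medians and red points are the 6 tested family members, of which the 2 with a run of 3 lie above 0, miR-200c-3p only just and not under every alternative.

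The miRNAs whose pattern over the 6 libraries lay nearest to the leading member of each cluster were found by the distance between centred log2 CPM values. For miR-200b-3p they were miR-181b-5p (distance 0.20, log2 ratio -1.60), miR-224-5p (0.21, log2 ratio -1.68) and miR-221-5p (0.31, log2 ratio -1.71). For miR-200c-3p they were miR-152-3p (distance 0.27, log2 ratio 0.11), miR-27b-5p (0.28, log2 ratio 0.088) and miR-503-5p (0.35, log2 ratio 0.22). Distances were taken over the same libraries, so a log2 ratio close to that of the leading member follows from the choice.

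Other miRNAs typical of epithelial cells were examined beside the family, and no test of the difference between the lists was made. Of 11 listed miRNAs, 5 were tested, 4 were enriched and 0 were depleted, against 23.5% enriched and 29.2% depleted among all tested, with a median log2 ratio of 1.013. Of the 4, miR-182-5p, miR-183-5p and miR-183-3p come from 1 cluster. miR-182-5p averaged 4205 ± 286 CPM before immunoprecipitation and 8809 ± 930 CPM after it (SD, n = 3). It was enriched by 1.07 on the log2 scale (SE 0.11, edgeR adjusted p 4.85e-05). miR-183-5p was enriched by 1.013 (edgeR adjusted p 4.93e-05) and miR-183-3p by 1.69 (edgeR adjusted p 0.00802). miR-375, an endocrine and epithelial miRNA, was enriched by 0.85 (edgeR adjusted p 0.00307). miR-96-5p had a log2 ratio of -0.62 and was not past the threshold (edgeR adjusted p 0.0940). The skin and basal-cell miRNAs miR-203a and miR-205 had at most 8 counts in any library.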

How the data were processed

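Small RNA sequencing counts of 3 total RNA and 3 m7G-RIP libraries were used, grouped by their titles. The deposited values are unnormalized counts, 1 per read assigned to a mature miRNA by the authors. According to their methods, reads were first trimmed with Trimmomatic, aligned to GRCh38 with STAR, end to end with up to 1 mismatch and 10 locations, and counted with featureCounts on miRBase mature miRNAs. The submitters' processing notes name Bowtie2 instead, and how reads with several locations were counted is not given in the sources used here. RNA for immunoprecipitation was decapped and denatured per those methods, and bound RNA was eluted with 7-methyl-GTP.

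The test on these counts was run over all miRNAs with edgeR 4.0.16 (R 4.3.3), using TMM, its default filter by group, the robust quasi-likelihood F test and Benjamini-Hochberg adjustment at 0.05. Arm ratios, log2((5p + 0.5)/(3p + 0.5)), were tested with limma 3.58.1 over 139 hairpins. Shares and pairs used exact two-sided permutation tests in scipy 1.17.1. The alternatives covered scaling, filtering, DESeq2 1.42.0, limma-voom, the added count, leaving out each library and a replicate block. Named miRNAs were the 9 members, the 3 nearest in pattern to the leading member of each cluster, and the epithelial and cell line lists. The members and lists were chosen with earlier results of these data known. Chi-square per degree of freedom between replicates ran from 22.2 to 112, above sampling noise, so all were kept separate. On simulated counts of 589 miRNAs, the member test called 73.8% of 4-fold and 39.3% of 2-fold changes in the right direction and 0.251% of unchanged miRNAs. On 139 simulated hairpins, the arm test called 68.2% of 4-fold and 25.6% of 2-fold changes in the right direction and 3.03% of unchanged hairpins.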

Additional observations from a re-analysis of the deposited data

How the results depend on the processing

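Of the alternatives run, miR-200b-3p and miR-200a-3p stayed depleted in each that gave a value, from -1.83 to -1.005 and from -3.39 to -2.37 on the log2 scale. With library size alone the log2 ratio was -0.54 for miR-200a-5p, no longer past the threshold, and 1.64 for miR-200b-5p and 0.62 for miR-200c-3p, both now past it. With library sizes taken without the 10 most abundant miRNAs these values were -0.63, 1.54 and 0.52, with the same changes. The number of members enriched was thus 2 under each of these scalings against 0 with TMM, since the median of all miRNAs rose by 0.55 and 0.45. miR-200c-3p turned to -0.21 with no filter, -0.0045 without total RNA replicate 2, -0.042 without total RNA replicate 3, -0.29 without m7G-RIP replicate 2 and -0.11 without m7G-RIP replicate 3, and the cause was not tested. Across the fits that left out a library, miR-200a-5p ran from -1.64 to -1.02, miR-200c-3p from -0.29 to 0.11 and the miR-200a arm ratio from 1.69 to 2.05. miR-429 ran from -4.67 to -2.19 without an m7G-RIP library and gave no value without a total RNA library. From 2 to 4 members were depleted and 0 enriched over all fits that left out a library. In them the chromosome 1 share differed by -20.3 to -16.7 percentage points, and the log2 ratio of miR-200b-3p over miR-200c-3p by -1.75 to -1.52. A minimum of 10 counts per library removed miR-200a-3p and miR-429.

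Total RNA and m7G-RIP libraries share replicate numbers, but the labels do not say that a number marks a shared culture. Deviations of same-numbered libraries correlated at -0.043, -0.10 and 0.064, so the numbers were not taken as pairs. With the replicate block the log2 ratio was -1.56 for miR-200b-3p, -1.18 for miR-200a-5p and -3.03 for miR-429, and the arm ratios changed by 1.81 for miR-200a and 2.60 for miR-200b, and no call of a member or arm ratio changed. The 3 near absent members could not be compared at this depth. miR-429 had 5, 1 and 0 counts in m7G-RIP, and its side of the threshold changed without m7G-RIP replicate 1.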
